A study of Mus musculus with 4 samples.

Results

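In the testis libraries A0, A10 and BA10, 107 of 22401 cells carried transcripts of at least 2 of the 3 genes Dmc1, Prdm9 and Meiob, out of 27060 cells in the 4 libraries of the series. These 107 cells (38 in A0, 25 in A10 and 44 in BA10) are called the selected cells here. The selection was meant to take, per library, the 100 qualifying cells with the highest mean deposited value over the 3 genes. Since fewer than 100 qualified in each library, all of them were taken. The levels of the 3 genes are therefore no finding.

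All libraries came from testes of male ICR mice, which were first treated at about the age of weaning and whose testes were taken after several weeks of dosing. A0 was the control without alginate oligosaccharide (AOS), A10 received AOS at 10 mg/kg body weight, and BA10 received busulfan and then AOS at 10 mg/kg. Busulfan is an alkylating drug that kills dividing spermatogonia, and AOS is a short sugar chain made from alginate and was given by mouth. The remaining library, B0, had busulfan alone and lay outside the selection. Each group was 1 library made from the pooled cells of several mice, so differences between groups, animals and library preparations cannot be told apart. No test was therefore possible between groups, and every interval below is an exact 95% interval that covers counting error only.

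Dmc1, Prdm9 and Meiob act early in meiotic prophase, when spermatocytes cut and repair their DNA so that homologous chromosomes can find each other. PRDM9 is a histone methyltransferase whose zinc fingers choose the places where breaks are made. DMC1 is the meiosis-specific recombinase that coats the resected ends and searches for the homologue, and MEIOB binds single-stranded DNA and keeps these recombination intermediates stable. The X and Y chromosomes remain largely unpaired and are silenced as the sex body at pachytene, the stage that follows. A spermatocyte before that silencing still transcribes its X chromosome, so the X-linked share of transcripts is a measure of stage that the selection did not use.

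In the mm10 build, Dmc1 lies on chromosome 15 (79561497 to 79605109, minus strand) and Prdm9 and Meiob on chromosome 17 (15543079 to 15564354, minus strand, and 24804289 to 24839788, plus strand). All 3 were sparse. Dmc1 was detected in 1.35% of A0 cells, 1.17% of A10 cells and 2.78% of BA10 cells. Prdm9 was detected in 1.94%, 1.53% and 2.22%, and Meiob in 6.72%, 6.23% and 12.7%, in the same order. The selected cells held 23.4%, 16.8% and 33.6% of all Dmc1 UMIs (unique molecular identifiers, which count captured RNA molecules) of these libraries. Most Dmc1, Prdm9 and Meiob transcripts thus lay outside the selected cells. All 3 genes together were found in 0 cells of A0, which allows a share of up to 0.0336%, in 1 cell of A10 and in 2 cells of BA10. With genes this sparse, the limit is for cells with a UMI of each and not for cells that express all 3.

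The boundary of the selection was 1 UMI wide. Exactly 2 UMIs of the 3 genes were present in 24 of 38 selected cells in A0, 18 of 25 in A10 and 24 of 44 in BA10, and the most in any cell was 5. The mean deposited value (a natural log) over the 3 genes ran from 0.862 to 0.0753 in A0, from 0.750 to 0.0999 in A10 and from 0.719 to 0.0561 in BA10. Just outside the boundary were 819, 813 and 578 cells with only 1 of the 3 genes detected. Selected cells were 0.425% of A0 (0.301 to 0.583%), 0.258% of A10 (0.167 to 0.381%) and 1.17% of BA10 (0.848 to 1.56%), while the median cell of these libraries had 12685, 10948 and 17989 UMIs. After every cell had been thinned to 5000 UMIs, only 6, 4 and 4 cells still qualified, which is 0.0671% (0.0246 to 0.146%), 0.0413% (0.0113 to 0.106%) and 0.106% (0.0289 to 0.271%). At equal depth the 3 intervals overlapped, so a difference in the share of such cells was not detectable at that depth.

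The selected cells were deeper than the others of their library. Their median was 16358 UMIs in A0, 15095 in A10 and 23361 in BA10, against 12669, 10946 and 17891 in the other cells. After thinning, the median number of genes was close in both, at 2216 against 2150 in A0, 2198 against 2133 in A10 and 2137 against 2114 in BA10. Scrublet, which looks for barcodes that hold a mixture of cells, called 10 of 38 selected cells in A0 (26.3%), 6 of 25 in A10 (24.0%) and 1 of 44 in BA10 (2.27%), against 7.99%, 8.62% and 1.26% of the other cells. The part of such barcodes in the results was not tested beyond leaving them out. Values without them are given below for Prss50, Dazl, Stra8, Hells, Zcwpw1 and Sycp1. Between libraries, 135 barcodes were shared by A0 and A10, 50 by A0 and BA10 and 52 by A10 and BA10, with 0 shared among selected cells.

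The label of early prophase was checked against markers that the selection did not use. Prss50, a testis-specific serine protease gene, and Stra8, the retinoic acid target that drives meiotic entry, mark germ cells around the start of prophase. A UMI of either gene was present in 19 of 38 selected cells in A0, 14 of 25 in A10 and 29 of 44 in BA10, a division of the cells made after these values were seen. Piwil1, the pachytene piRNA-binding protein, was present in 22 of 38, 12 of 25 and 41 of 44. Tex101, a germ cell surface protein, had UMIs in 33, 21 and 44 cells, and Sycp1, the central filament of the synaptonemal complex, in 34, 22 and 40. Transcripts of spermatids, the cells after meiosis, were present as well. The 12 spermatid genes summed to 24.1 to 1429 UMIs per 10000 in the selected cells of A0 (median 429.9), to 37.2 to 1549 in A10 (131.3) and to 0 to 95.6 in BA10 (1.73), against medians of 131.2, 162.0 and 2.77 in the other cells. Above the upper quartile of the other cells (767.7, 942.7 and 9.70) lay 11 of 38, 5 of 25 and 7 of 44 selected cells, and 8, 4 and 6 of these carried Sycp1. In A0 the 19 cells with Prss50 or Stra8 had a spermatid median of 615.9, against 120.9 in the 19 without both, and 6 and 4 of them were called by Scrublet. In A10 the medians were 130.2 and 131.3, with 5 of 14 and 1 of 11 called, and in BA10 1.92 and 1.30, with 0 of 29 and 1 of 15. In A0 and A10 no cell was free of spermatid transcripts, as the lowest other cells held 20.8 and 29.15 UMIs per 10000. Their presence thus set no cells apart there. By median, the A0 cells with these 2 early markers held more spermatid transcripts than those without. The typical selected cell held more spermatid transcripts than the typical other cell in A0 and fewer in A10 and BA10. Genes of early prophase and of pachytene occurred in the selected cells, beside spermatid transcripts in widely varying amounts. The selected cells are therefore named here by the rule and not by stage.

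The X-linked share of UMIs spread widely. It ran from 0.0355 to 2.19% (median 1.15%) over the 38 selected cells of A0, from 0.0388 to 1.95% (median 0.889%) over the 25 of A10, and from 0.0345 to 1.86% (median 0.194%) over the 44 of BA10. A set of cells with both Stra8 and Rhox13 (30, 23 and 57 cells) had medians of 1.49%, 1.69% and 0.729%, and the 100 cells of each library highest in Pou5f2, a gene of late spermatocytes, had medians of 0.0569%, 0.0689% and 0.0605%. Rhox13 is itself X-linked, so the first of these sets was chosen in part by an X-linked transcript. The part of that choice in its X-linked shares was not tested. The selected cells covered the whole distance between these sets. At or above the lower quartile of the Stra8 and Rhox13 cells lay 19 of 38 in A0, 10 of 25 in A10 and 14 of 44 in BA10. At or below the upper quartile of the Pou5f2 cells lay 3, 2 and 8. Of the 43 selected cells in the upper range, 31 carried Prss50 or Stra8 and 17 carried Piwil1, while of the 13 in the lower range 2 carried Prss50 or Stra8 and 13 carried Piwil1. These counts pool libraries whose upper range began at 1.17%, 1.05% and 0.3595%. In the upper range Prss50 or Stra8 was carried by 13 of 19 cells in A0, 7 of 10 in A10 and 11 of 14 in BA10. Piwil1 was carried there by 4, 2 and 11 cells. The 2 cells of the lower range with Prss50 or Stra8 were in BA10. Spermatid genes moved with the X-linked share too. Their median was 809 UMIs per 10000 in the 19 A0 cells of the upper range, 83.4 in the 16 between and 24.8 in the 3 of the lower range. It was 896, 99.8 and 39.7 in A10 and 7.31, 1.68 and 1.37 in BA10. The Stra8 and Rhox13 cells had spermatid medians of 682.9, 341.7 and 3.30, and the part of spermatid transcripts in the X-linked shares was not tested. The other cells of these libraries had medians of 0.996%, 0.984% and 0.241%, so a high X-linked share did not by itself mark early prophase.

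**Figure D1:**
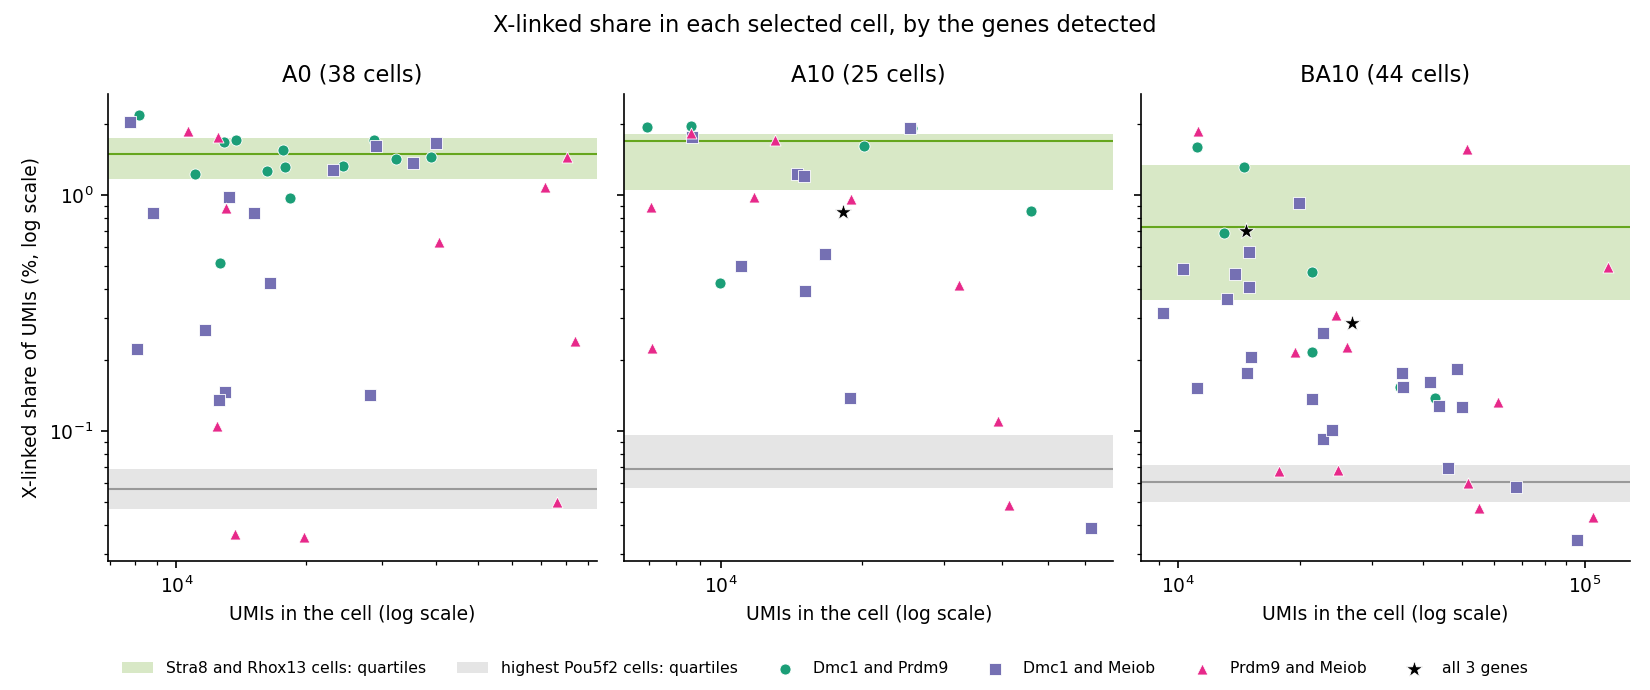
X-linked share of UMIs (percent, log axis) of each selected cell against its UMIs (log axis), in 3 panels for A0, A10 and BA10. Each marker is 1 cell, its shape and colour give the genes detected, and the bands and lines give the quartiles and median of the Stra8 and Rhox13 cells (green) and of the 100 cells highest in Pou5f2 (grey). The selected cells reach from the green band to the grey one in every library, and most of those of BA10 lie below the median of the Stra8 and Rhox13 cells. Rhox13, which helped to choose the green set, is itself X-linked.

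Which 2 genes a cell carried went along with its other transcripts. Of the 26 cells with Dmc1 and Prdm9 but no Meiob, 21 carried Prss50, 11 carried Stra8 and 11 carried Piwil1, and their median X-linked share was 1.32%. Of the 46 cells with Dmc1 and Meiob, 24 carried Prss50, 4 carried Stra8 and 37 carried Piwil1, at a median X-linked share of 0.291%. Of the 32 cells with Prdm9 and Meiob, 9 carried Prss50, 4 carried Stra8 and 25 carried Piwil1, at 0.275%. These counts pool libraries that hold different numbers of each pair. In the order Dmc1 and Prdm9, Dmc1 and Meiob, Prdm9 and Meiob, Prss50 was carried by 11 of 13, 5 of 14 and 2 of 11 cells in A0, by 4 of 6, 6 of 9 and 2 of 9 in A10, and by 6 of 7, 13 of 23 and 5 of 12 in BA10. Stra8 was carried by 6, 0 and 0 cells in A0, 1, 1 and 2 in A10, and 4, 3 and 2 in BA10. Piwil1 was carried by 4, 9 and 9 cells in A0, 2, 6 and 4 in A10, and 5, 22 and 12 in BA10. Cells without Meiob thus had the largest shares with Prss50 and Stra8 in A0 and BA10 and not in A10, and the smallest share with Piwil1 in each library, on counts too few to compare firmly. Within libraries the median X-linked share of the Dmc1 and Prdm9 cells was 1.42% in A0 (13 cells), 1.77% in A10 (6 cells) and 0.472% in BA10 (7 cells). For Dmc1 and Meiob it was 0.837%, 0.563% and 0.176%, and for Prdm9 and Meiob 0.628%, 0.889% and 0.174%. The Dmc1 and Prdm9 cells were highest in each library. Their median depth of 17780 UMIs stood beside 16596 and 24684 in the other pairs, and the part of depth in these shares was not tested.

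The 3 cells with all 3 genes can be given singly. The A10 cell had 18244 UMIs, with 1 of Dmc1, 2 of Prdm9, 1 of Meiob, 2 of Prss50, 1 of Stra8 and 5 of Dazl, and an X-linked share of 0.844%. The first BA10 cell had 14689 UMIs, with 4 of Prss50, 0 of Stra8, 5 of Dazl and 6 of Sycp1, and an X-linked share of 0.701%. The second BA10 cell had 26774 UMIs, with 6 of Prss50, 5 of Stra8, 7 of Sycp1, 3 of Piwil1 and an X-linked share of 0.288%. All 3 carried Prss50, and none was called a mixture by Scrublet.

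Against the other cells of their library, the selected cells were compared by level, the UMIs summed over cells and scaled to 1000000 (CPM). The log2 ratios have 10 CPM added to both sides, and a gene was called at 2-fold or more. Genes seen in at least 10% of the selected or of the other cells entered, without Dmc1, Prdm9 and Meiob. In A0, 138 of 9224 genes were called higher (1.5%) and 36 lower (0.39%). In A10, 241 of 8633 were higher (2.79%) and 19 lower (0.22%). In BA10, 6 of 9110 were higher (0.0659%) and 47 lower (0.516%). These counts depend on the setting: with 1 CPM added 987, 1191 and 148 genes were called higher in A0, A10 and BA10, with means over cells 562, 794 and 76, and after centring on the median gene 81 in A0 and 133 in A10. With 10 CPM added, the 6 genes of BA10 were Prss50, Dazl, Sycp1, Ncl, Hells and Gm7972. The median log2 ratio of all genes was 0.10 in A0, 0.13 in A10 and 0.02 in BA10.

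Among genes seen in at least 20% of the selected cells, Prss50 had the largest log2 ratio in each library. It stood at 47.4 CPM in the selected cells of A0 against 1.96 CPM in the others, a 24.2-fold ratio (17.3 to 33.1). In A10 it was 83.6 against 2.03 CPM, 41.2-fold (29.0 to 56.9), and in BA10 48.8 against 9.20 CPM, 5.30-fold (4.11 to 6.77). Its log2 ratios with 10 CPM added were 2.26, 2.96 and 1.61. The transcript was carried by 18, 13 and 26 cells with at most 6, 11 and 7 UMIs in a cell, so no single cell set the level. Without the cells called by Scrublet the log2 ratios of Prss50 were 2.31, 2.76 and 1.67, and in A0 Gstm1 then stood above it at 2.74. Lcn2 and Fabp3, seen in 6 and 7 selected cells of A0, had log2 ratios of 3.70 and 2.33 there, with 149 of 154 and 68 of 78 UMIs in 1 cell. The selected cells of BA10 and A0 were close in level, and the smaller ratio of BA10 stood beside the higher level of its other cells.

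Dazl, the RNA-binding protein that licenses germ cells for meiosis, had the next largest log2 ratio with 10 CPM added after Prss50 in A10 and BA10, among genes seen in at least 20% of the selected cells. In A0 it came after Gstm1 and Cst3 as well, which are described with the Leydig genes. Without an added CPM, some genes of lower level had larger ratios, Hells among them. The level of Dazl was 109 against 21.9 CPM in A0, 167 against 20.7 CPM in A10 and 79.7 against 27.2 CPM in BA10. The ratios of Dazl were 4.95 (4.03 to 6.02), 8.08 (6.41 to 10.1) and 2.93 (2.41 to 3.53). It was found in 26, 17 and 33 selected cells, at medians of 0.753, 1.58 and 0.423 UMIs per 10000 and up to 11.1, 23.1 and 10.7. Its log2 ratios of 1.89, 2.53 and 1.27 were 2.18, 2.12 and 1.31 without the cells called by Scrublet. Stra8 was carried by 6, 5 and 10 selected cells only, at 20.01 against 1.15 CPM in A0, 29.9 against 1.35 CPM in A10 and 17.9 against 4.62 CPM in BA10. Together with Rhox13, Tex101 and 8 other genes these make up a meiotic entry list, whose level was 3.01-fold (2.75 to 3.27), 3.87-fold (3.48 to 4.29) and 2.11-fold (1.97 to 2.25) that of the other cells. Of its genes that entered the comparison, 3 of 9 were called higher in A0 (Stra8, Dazl and Tex101), 5 of 8 in A10 (those 3, Rhox13 and Scml2) and 1 of 10 in BA10 (Dazl). In A0, 9 of the 19 Stra8 UMIs were in 1 cell, which Scrublet also called. Without that cell Stra8 was at 10.9 CPM, and its log2 ratio went from 1.43 to 0.91, under the call. Without all cells called by Scrublet, Stra8 in A0 was at 17.7 against 1.105 CPM and still called, at 1.32. In A10 and BA10 its log2 ratios were then 1.825 and 0.965. In A10 the log2 ratios of Rhox13 and Scml2 went from 1.00 and 1.04 to 0.73 and 0.68 without the cell richest in each, and that of Stra8 from 1.81 to 1.31. Tex101 gave much of the sum, with 290 of 566 CPM in A0, 386 of 733 CPM in A10 and 418 of 624 CPM in BA10.

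Regulatory sequence is shown for the genes that chose the cells and for the 2 genes that checked their stage, because E2F6 and STRA8 are known to act on germ cell promoters. The windows are the 250 bases before the annotated start, from RefSeq on build GRCm38.p6. They are written 5′ to 3′ on the gene's strand. Capitals mark matches, on either strand, to the E2F6-type motif TCCCGC and to the STRA8-type motif CNCCTCAG, and the E-box CACGTG was also searched for. Meiob has no entry in the table used. The windows are chr15:79605110-79605359 (minus) for Dmc1, chr17:15563332-15563581 and chr17:15564355-15564604 (minus) for the 2 annotated starts of Prdm9, chr9:110857714-110857963 (plus) for the first start of Prss50 and chr6:34920698-34920947 (plus) for Stra8.

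Dmc1: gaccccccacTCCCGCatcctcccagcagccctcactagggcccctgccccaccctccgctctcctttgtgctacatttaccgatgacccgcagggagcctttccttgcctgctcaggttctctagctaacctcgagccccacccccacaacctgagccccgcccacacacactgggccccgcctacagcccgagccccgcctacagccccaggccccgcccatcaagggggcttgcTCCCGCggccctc
Prdm9, first start: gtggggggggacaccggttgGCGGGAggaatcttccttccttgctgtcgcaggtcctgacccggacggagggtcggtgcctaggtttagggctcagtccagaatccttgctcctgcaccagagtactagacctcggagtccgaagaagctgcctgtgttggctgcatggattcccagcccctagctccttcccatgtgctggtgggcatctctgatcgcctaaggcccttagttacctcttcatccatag
Prdm9, second start: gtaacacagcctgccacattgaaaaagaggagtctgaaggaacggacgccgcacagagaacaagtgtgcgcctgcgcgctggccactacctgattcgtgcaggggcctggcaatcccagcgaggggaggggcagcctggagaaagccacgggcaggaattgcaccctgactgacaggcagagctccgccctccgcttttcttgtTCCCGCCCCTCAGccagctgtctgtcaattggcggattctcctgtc
Prss50: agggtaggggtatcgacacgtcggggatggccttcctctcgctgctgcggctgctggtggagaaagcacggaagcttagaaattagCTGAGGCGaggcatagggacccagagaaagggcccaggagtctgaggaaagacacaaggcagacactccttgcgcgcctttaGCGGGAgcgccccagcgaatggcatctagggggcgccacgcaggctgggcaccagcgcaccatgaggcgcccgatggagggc
Stra8: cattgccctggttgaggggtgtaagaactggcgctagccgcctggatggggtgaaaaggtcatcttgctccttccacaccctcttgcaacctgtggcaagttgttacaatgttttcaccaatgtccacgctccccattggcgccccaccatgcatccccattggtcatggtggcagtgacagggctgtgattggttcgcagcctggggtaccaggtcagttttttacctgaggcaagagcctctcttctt

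Dmc1 had 2 E2F6-type matches, and each Prdm9 start and Prss50 had 1. The second Prdm9 start and Prss50 also had 1 STRA8-type match each, which at Prdm9 overlaps the E2F6-type match by a base. Stra8 itself had 0 matches to any of the 3 motifs in this window. Over 27025 genes with a promoter window, 18.8% held the E2F6-type motif, 7.39% the STRA8-type motif and 6.86% the E-box. Over the 72 of 85 genes on the lists of selecting, break, strand exchange, crossover, synaptonemal complex, cohesin, telomere and meiotic entry genes that have a window, the shares were 48.6%, 12.5% and 18.1%. Such matches describe letters and not bound sites.

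Other genes of break formation were closer to the rest of the library than Prss50. Hormad1, an axis protein on which break formation depends, stood at 122 against 57.8 CPM in A0, 129 against 66.2 CPM in A10 and 98.2 against 76.96 CPM in BA10. Spo11, the enzyme that makes the breaks, was at 25.3 against 27.6 CPM in A0, 41.8 against 26.1 CPM in A10 and 52.9 against 58.2 CPM in BA10, and so was not higher in the selected cells of A0 or BA10. Ankrd31, which brings the break machinery to the sex chromosomes' shared region, was at 55.8 against 40.8, 79.7 against 39.1 and 37.1 against 33.5 CPM. Of the break formation genes that entered, 1 of 6 was called higher in A0, 2 of 7 in A10 and 1 of 8 in BA10: Prss50 in each, and Tex15 in A10, whose log2 ratio of 1.14 was 0.98 without its richest cell. Prss50 was placed on that list although break formation is not its established role. Without it the list stood at 273 against 176 CPM in A0, 1.55-fold (1.37 to 1.75), at 376 against 179 CPM in A10, 2.11-fold (1.82 to 2.43), and at 224 against 191 CPM in BA10, 1.17-fold (1.05 to 1.31).

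Hells and Zcwpw1 work beside PRDM9, the first as a chromatin remodeller that opens hotspots with it and the second as a reader of the histone marks it writes. Hells was at 30.6 against 4.54 CPM in A0, 57.8 against 5.47 CPM in A10 and 33.0 against 9.94 CPM in BA10, ratios of 6.73 (4.47 to 9.78), 10.6 (7.01 to 15.2) and 3.32 (2.43 to 4.44). Zcwpw1 was at 32.7 against 5.15 CPM, 59.8 against 5.23 CPM and 29.5 against 10.2 CPM, ratios of 6.35 (4.29 to 9.06), 11.4 (7.67 to 16.4) and 2.90 (2.08 to 3.94). They were carried by 17, 13 and 24 and by 23, 16 and 25 selected cells. Both were called in A0 and A10, and in BA10 Hells was, with Zcwpw1 at a log2 ratio of 0.97. Without the cells called by Scrublet, Hells had log2 ratios of 1.65 in A0, 1.91 in A10 and 1.13 in BA10, and Zcwpw1 1.80, 2.21 and 0.94. Ewsr1 and Cxxc1, which bind PRDM9 and are expressed in many cells, were at 212 against 299 and 14.8 against 28.5 CPM in A0, and Ewsr1 had log2 ratios of 0.08 in A10 and -0.09 in BA10.

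Genes of strand exchange stood close to the rest of the library in A0 and BA10. Psmc3ip, a DMC1 partner, was at 466 against 526 CPM in A0, 548 against 502 CPM in A10 and 798 against 753 CPM in BA10. Of the strand exchange genes that entered, 0 of 16 were called higher in A0, 3 of 16 in A10 (Rpa2, a subunit of the single-strand binding complex RPA, among them, at a log2 ratio of 1.09, or 0.85 without its richest cell) and 0 of 18 in BA10. Crossover genes had 0 of 9, 1 of 10 (Hfm1, a helicase) and 0 of 10. Of all genes that entered, 1.5% in A0, 2.79% in A10 and 0.0659% in BA10 were called higher. At such shares a count of 0 in A0 or BA10 is not particular to these lists. Break, strand exchange and crossover genes together, without the selecting genes and Prss50 (43 genes), stood at 1.09-fold (1.03 to 1.15) in A0, 1.39-fold (1.30 to 1.48) in A10 and 1.09-fold (1.05 to 1.13) in BA10.

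Sycp1 was the synaptonemal complex gene called higher in all 3 libraries, at 388 against 134 CPM in A0, 378 against 151 CPM in A10 and 268 against 115 CPM in BA10. The ratios were 2.89 (2.60 to 3.20), 2.51 (2.16 to 2.89) and 2.33 (2.10 to 2.58). Per cell it ran from 0 to 32.1 UMIs per 10000 in A0 (median 2.38), from 0 to 26.7 in A10 (3.18) and from 0 to 33.1 in BA10 (1.51). The log2 ratios of Sycp1 with 10 CPM added were 1.46, 1.27 and 1.16. Without the cells called by Scrublet they were 1.93, 0.99 and 1.19, so that A10 came just under the call. Without the cell with the most Sycp1 UMIs, BA10 was at 0.98, also just under it. Cells thus ranged from none to a high level within each library. Sycp3, of the lateral elements, was at 347 against 166 CPM in A0, 382 against 186 CPM in A10 and 342 against 303 CPM in BA10. Of the 10 genes of the complex, 3 were called higher in A0 (Sycp1, Sycp3 and 4930447C04Rik), 2 in A10 (Sycp1 and 4930447C04Rik) and 1 in BA10 (Sycp1). Sycp3 in A0 had a log2 ratio of 1.02, or 0.95 without its richest cell. Syce1 was at 513 against 575, 613 against 587 and 868 against 854 CPM.

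Genes of later stages differed by list. The pachytene list stood at 0.88-fold (0.865 to 0.895) of the other cells in A0, 0.997-fold (0.973 to 1.02) in A10 and 0.969-fold (0.959 to 0.979) in BA10, with 0 of its 18 genes called in any. Ldhc, the sperm lactate dehydrogenase made from pachytene on, had UMIs in every selected cell, from 6.41 to 116 per 10000 in A0, 15.9 to 108 in A10 and 8.04 to 111 in BA10. The pachytene list as a whole was above 0 in every other cell of these libraries as well. Ccnb1, the cyclin of the division, was at 70.6 against 176 CPM in A0, 89.6 against 163 CPM in A10 and 122 against 216 CPM in BA10, and was called lower in A0. The division list was at 0.696-fold (0.651 to 0.747), 0.88-fold (0.807 to 0.959) and 0.877-fold (0.841 to 0.914). The spermatid list stood at 1.04-fold (1.03 to 1.05) in A0, 0.692-fold (0.683 to 0.702) in A10 and 0.424-fold (0.398 to 0.451) in BA10, where it was at 677 against 1599 CPM and 3 of 11 genes were called lower (Prm1, Prm2 and Tnp2). The sum was thus lower in the selected cells of A10 and BA10, while in A0 it was close to that of the other cells although the median per selected cell was the higher (429.9 against 131.2 UMIs per 10000). Prm1, the protamine of elongating spermatids, was found in all 38 selected cells of A0 and all 25 of A10, from 6.08 to 413 and from 10.8 to 571 UMIs per 10000, and in 25 of 44 of BA10, at most 8.18 per 10000. In A0 and A10 Prm1 was also present in nearly all other cells after thinning (99.9% and 99.99%), against 19.5% in BA10, so a Prm1 UMI at low level did not mark a spermatid there.

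**Figure D2:**
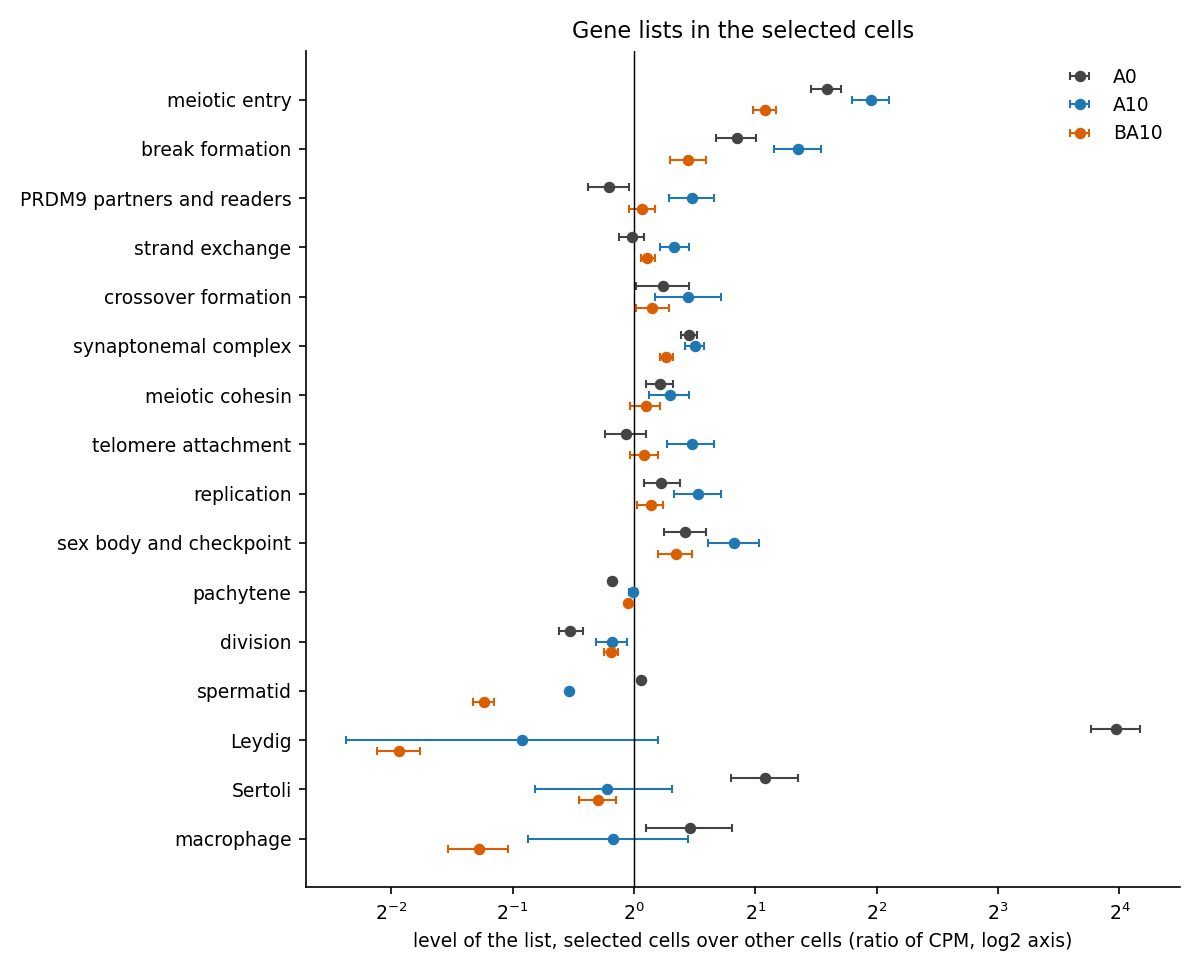
Level of 16 gene lists in the selected cells relative to the other cells of the same library (ratio of CPM, log2 axis), for A0 (grey), A10 (blue) and BA10 (orange), with exact intervals for counting error. The meiotic entry and break formation lists lie to the right of 1 in all 3 libraries, strand exchange lies closer to 1, and the Leydig list lies far to the right in A0 only, where 214 of its 225 UMIs came from 1 cell.

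In A0 the Leydig signal came mostly from 1 cell. The 8 Leydig genes summed to 237 against 15.1 CPM in A0, but 214 of the 225 UMIs were in a single cell of 7807 UMIs, which held 84 UMIs of Cyp17a1, a steroid-synthesis enzyme of Leydig cells. It also had 0 UMIs of Prss50, Stra8, Dazl, Tex101 and Sycp1. Of the 38 selected cells of A0, 30 had 0 UMIs of the list, and of the 37 others 1 had a Cyp17a1 UMI. In A10 the list was at 12.0 against 22.6 CPM and at 0 in 20 of 25 selected cells, with 0 UMIs of Insl3 and Cyp17a1 in the selected cells. In BA10 it was at 168 against 642 CPM, with no selected cell over 16 UMIs, 1 of 44 at 0 and Cyp17a1 in 26 of 44. There it was thus spread over the selected cells. Their median of 1.685 UMIs per 10000 was close to the 2.105 of the other cells of BA10, which reached 555. Gstm1, a detoxifying enzyme, and Cst3, a protease inhibitor, followed Prss50 in A0 by log2 ratio (2.15 and 1.93), yet 65 of 75 Gstm1 UMIs and 56 of 125 Cst3 UMIs were in 1 cell. Without the Leydig-gene cell, a choice made after seeing the data, their log2 ratios were 0.04 and 1.17. Sertoli genes summed to 117 against 55.3, 55.8 against 64.9 and 241 against 296 CPM in the 3 libraries, macrophage genes to 71.6 against 52.0, 41.8 against 47.2 and 95.5 against 231 CPM, and endothelial and myoid genes to under 10 CPM in all. In BA10, 1 of 44 selected cells had 0 UMIs of the Sertoli genes and 5 had 0 of the macrophage genes, against 13 and 15 of 38 in A0 and 14 and 15 of 25 in A10. Among the other cells, 3.96% in BA10, 57.5% in A0 and 53.9% in A10 had 0 of the Sertoli genes. For the macrophage genes it was 11.8%, 60.9% and 62.2%, so the contrast was present outside the selected cells too. These counts are at the full depth of each cell.

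The other genes with the largest ratios included Ncl (nucleolin), at 104 against 21.01 CPM in A0, 133 against 20.95 CPM in A10 and 89.3 against 35.0 CPM in BA10, and Esco2, which acetylates cohesin in S phase, at 28.4 against 2.10, 35.9 against 1.85 and 10.99 against 2.82 CPM. In A0 the 10 largest among genes seen in at least 20% of the selected cells were completed by Rpl39, Gml2, Hmgb2 and Tmed9, at log2 ratios of 1.77, 1.77, 1.72 and 1.69. In A10 they were completed by Rnaset2a, Cnih4, Tex101 and Kif5b, at 2.08, 1.92, 1.92 and 1.86. In BA10 Gm7972, Rhox13, Tex101 and Nmt2 followed at 1.03, 1.00, 0.98 and 0.94. Prss50, Dazl and Ncl were among the 10 largest in all 3 libraries.

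Detection at equal depth gave a graded picture for Prss50 and Dazl. After thinning to 5000 UMIs, Prss50 was found in 0.557% of A0 cells with none of the 3 selecting genes (0.406 to 0.744%), in 3.79% of those with 1 (2.59 to 5.33%) and in 28.9% of the selected cells (15.4 to 45.9%). The shares were 0.859%, 3.57% and 32.0% in A10, and 4.25%, 9.17% and 22.7% in BA10. Dazl went from 7.72% through 21.6% to 44.7% in A0, from 7.78% through 18.2% to 52.0% in A10 and from 12.8% through 23.0% to 36.4% in BA10. For both genes each step was upward in each library, and the intervals of the selected cells and of the cells with none did not overlap. Stra8 was found in 10.5% (2.94 to 24.8%), 8% (0.984 to 26.0%) and 4.55% (0.555 to 15.5%) of selected cells. With none of the 3 selecting genes it was found in 0.396%, 0.475% and 2.12% of cells, and with 1 in 1.34%, 1.48% and 5.02%. In BA10 it thus did not rise from 1 gene to 2 or 3, and the intervals overlapped. Of the Stra8 and Rhox13 cells, which it helped to choose, 63.3%, 69.6% and 57.9% had it. Prss50, which chose neither set, was found in 40.0% of those cells in A0, 47.8% in A10 and 42.1% in BA10. Piwil1 was found in 36.8%, 28% and 72.7% of selected cells, against 10.0%, 13.0% and 35.1% of the Stra8 and Rhox13 cells and 62.0%, 63.0% and 62.0% of the Pou5f2 cells. Only 4, 3 and 4 selected cells were also in the Stra8 and Rhox13 set, and 0, 0 and 2 in the Pou5f2 set.

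**Figure D3:**
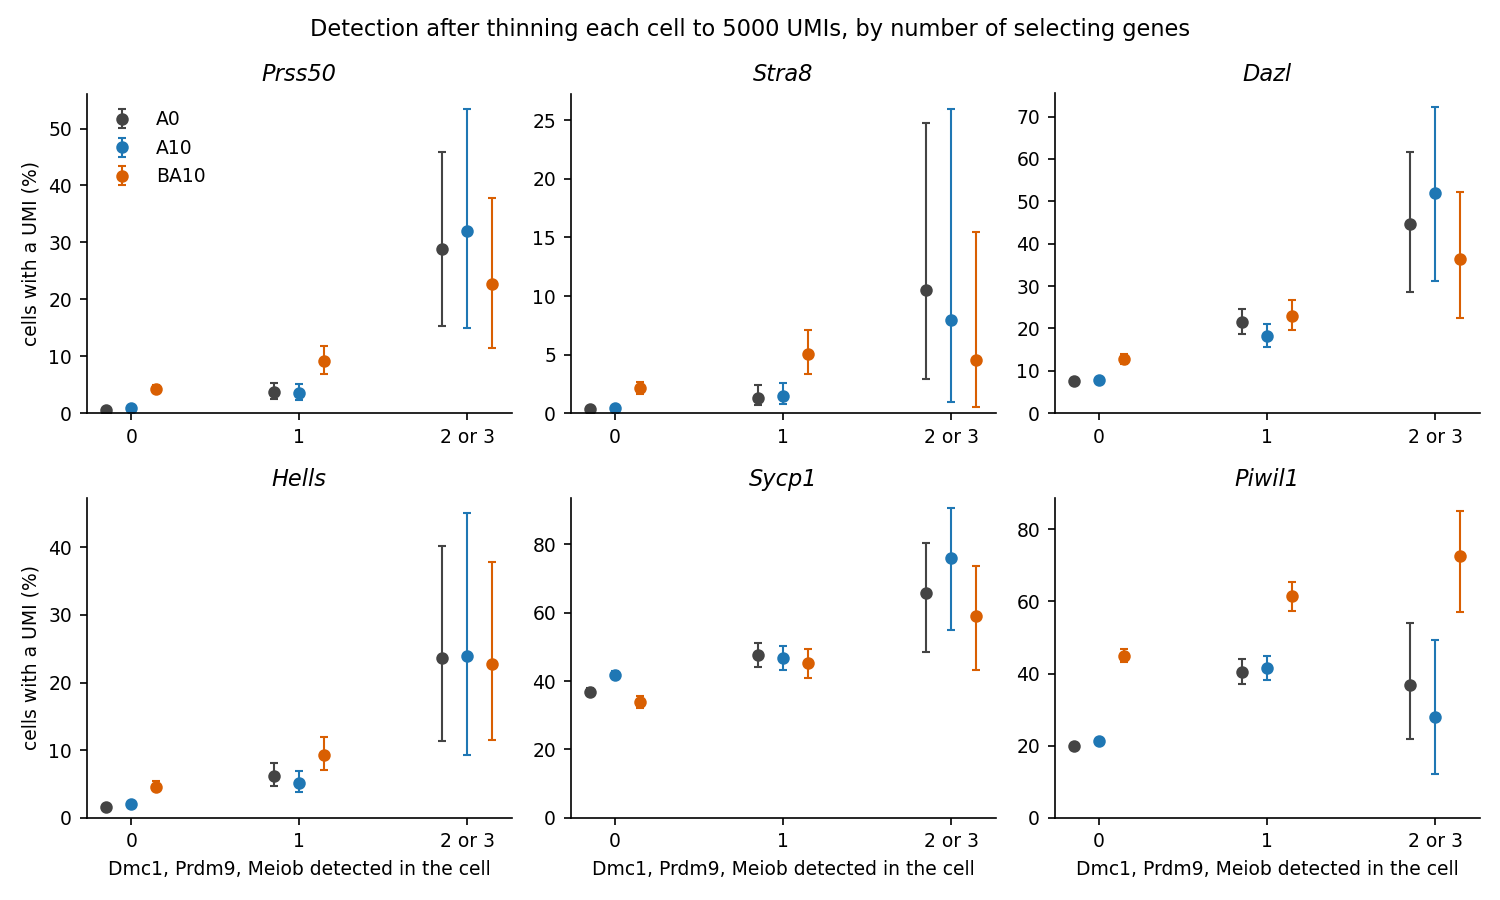
Percent of cells with a UMI of Prss50, Stra8, Dazl, Hells, Sycp1 and Piwil1 after thinning each cell to 5000 UMIs, in cells with 0, 1 and 2 or 3 of Dmc1, Prdm9 and Meiob detected before thinning. Points are A0 (grey), A10 (blue) and BA10 (orange) with exact intervals. Prss50, Dazl, Hells, Sycp1 and Piwil1 are more often detected with 2 or 3 genes than with 0 in each library. The intervals of these 2 groups lie apart, except for Piwil1 in A10. With 2 or 3 genes Prss50 reaches 28.9% in A0, 32.0% in A10 and 22.7% in BA10. For Piwil1 the intervals of the selected cells overlap those of the cells with 1 gene in all 3 libraries. The same holds for Sycp1 in A0 and BA10, and for Prss50, Dazl and Hells in BA10. Stra8 in BA10 is at 2.12%, 5.02% and 4.55% with 0, 1 and 2 or 3 genes, and the interval of the selected cells overlaps both others.

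Between libraries, the selected cells of A10 and A0 were compared at 25 and 38 cells. Of 9599 genes, 69 were called higher in A10 (0.719%) and 185 lower (1.93%), or 752 and 958 with 1 CPM added. Speer1, a testis-expressed gene of a multicopy family whose reads may be shared with its copies, was highest at 169 against 34.8 CPM, a 4.87-fold ratio, with a log2 ratio of 1.53 in the other cells. The next, Tmem243, Gm6588, Foxj1 and Lrrc42, had log2 ratios of 1.78, 1.49, 1.46 and 1.46, with 0.37, -0.18, -0.20 and 0.05 in the other cells. The falls of Gstm1 and Fabp3 (log2 -2.67 and -2.07) came with the single Leydig-gene cell of A0, without which they were -0.56 and 0.09. Prss50, Dazl, Zcwpw1 and Hells were higher in A10 by less than the call, and Sycp1 was level at 378 against 388 CPM. Prss50 had a log2 ratio of 0.71 (0.01 in the other cells), Dazl 0.58 (-0.06), Zcwpw1 0.71 (0.01) and Hells 0.74 (0.09). A single A10 cell of 6929 UMIs held 11 of 42 Prss50, 16 of 84 Dazl, 4 of 30 Zcwpw1 and 7 of 29 Hells UMIs. Without the cell richest in each gene, Prss50 was at 62.6 CPM in A10 and 41.9 CPM in A0. In the same way Dazl was at 137 and 101 CPM, Zcwpw1 at 52.5 and 29.9 CPM and Hells at 44.4 and 27.3 CPM. Break formation genes stood at 460 CPM in A10 and 320 CPM in A0, and meiotic entry genes at 733 and 566 CPM, with 0 genes of either list called. Of the later lists, division and pachytene genes had log2 ratios of 0.33 and 0.19, beside 0.37 for meiotic entry, and spermatid genes went the other way at 34780 against 45540 CPM (log2 -0.39, -0.41 to -0.36). With 1 library of each group and 25 selected cells, these differences had no replicate check.

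BA10 against A0 differed most in transcripts of later germ cells. Of 10121 genes, 413 were called higher in the selected cells of BA10 (4.08%) and 1392 lower (13.8%), or 1545 and 2274 with 1 CPM added. All 12 spermatid genes were called lower, from 45540 CPM in A0 to 677 CPM in BA10 as a sum. Prm2 was at 15880 CPM in A0 and 41.2 CPM in BA10, a log2 ratio of -8.28, with -5.55 in the other cells. Prm1 (-7.58, and -5.04 in the other cells), Tnp2 (-7.19 and -5.30) and Tnp1 (-5.63 and -4.79), the genes that repackage sperm chromatin, followed. These 4 genes were also lower in the other cells of BA10, by less than in the selected cells, and that difference was not tested. X-linked genes were also lower, with 73 of 261 called lower and 1 higher, and a median log2 ratio of -0.46 against 0.14 for all genes. The pooled X-linked share of UMIs was 0.9609% in A0 and 0.2809% in BA10 in the selected cells. In the other cells it was 0.8955% and 0.3421%, so a lower share in BA10 was present outside the selected cells as well.

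Prss50, Dazl, Hells and Sycp1 were not called between BA10 and A0. Prss50 had a log2 ratio of 0.03 in the selected cells and 0.68 in the other cells, Dazl -0.40 and 0.22, Hells 0.08 and 0.46, and Sycp1 -0.52 and -0.21. Meiotic entry genes summed to 624 CPM in BA10 and 566 CPM in A0, and break formation genes to 273 and 320 CPM. Over the lists of break, PRDM9 partner, strand exchange, crossover, synaptonemal complex, cohesin, telomere and meiotic entry genes together, 5 of 75 were called lower (6.67%) and 3 higher (4.0%), beside 13.8% and 4.08% of all genes. Meiotic cohesin genes summed to 409 CPM against 668 CPM, with 2 of 6 called lower, Smc3 and Rad21. Smc3 was at 33.0 against 85.3 CPM in the selected cells and 39.05 against 112.5 CPM in the other cells. Rad21 was at 9.62 against 48.45 CPM and 7.96 against 36.1 CPM. Of the synaptonemal complex genes 1 of 10 was called lower (Syce2, 0.292-fold, 0.247 to 0.344), and of the break formation genes 1 of 8 (Tex15, 0.245-fold, 0.141 to 0.412). In the other cells Syce2 was at 91.2 CPM in BA10 against 415.9 CPM in A0, and Tex15 at 8.61 against 40.9 CPM. These falls were thus present outside the selected cells as well. The pachytene list was at 15980 and 12020 CPM, with 2 of 18 genes called higher and 1 lower, and the division list at 1751 and 879 CPM, with 2 of 10 higher. Strand exchange genes stood at 1500 and 941 CPM, with 1 of 20 called in each direction. In the other cells of BA10 and A0 the pachytene list was at 16490 and 13660 CPM. The division list was at 1996 and 1262 CPM there, and strand exchange genes at 1391 and 953 CPM. Higher sums of these lists in BA10 were thus present outside the selected cells as well. The largest rises were Speer1 (log2 2.39, and 2.44 in the other cells), Vmn1r181 (1.96 and 1.29), Dcn (1.94 and 2.66) and Gsn (1.84 and 1.58), the last a pair of genes best known from stromal cells.

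BA10 against A10, which shares its libraries with both comparisons above, had 222 of 9743 genes higher (2.28%) and 1116 lower (11.5%), or 1099 and 1996 with 1 CPM added. The falls were again led by Prm2, Prm1, Tnp2 and Tnp1, at log2 ratios of -7.84, -7.30, -6.67 and -5.34 in the selected cells and -5.60, -5.48, -5.39 and -5.10 in the other cells. Among the rises, Insl3, a peptide hormone of Leydig cells, had 0 UMIs in the selected cells of A10 and stood at 40.5 CPM in those of BA10, at least 6.78-fold higher (against a floor of 3 UMIs over the A10 cells, 5.98 CPM). Lcn2 and Apoc1 were at least 8.51-fold and 8.05-fold higher in the same way. In the other cells Insl3 was at 125 CPM in BA10 and 1.44 CPM in A10. The Leydig list was higher in BA10 than in A10 in selected and other cells alike, and the part of free RNA was not tested.

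**Figure D4:**
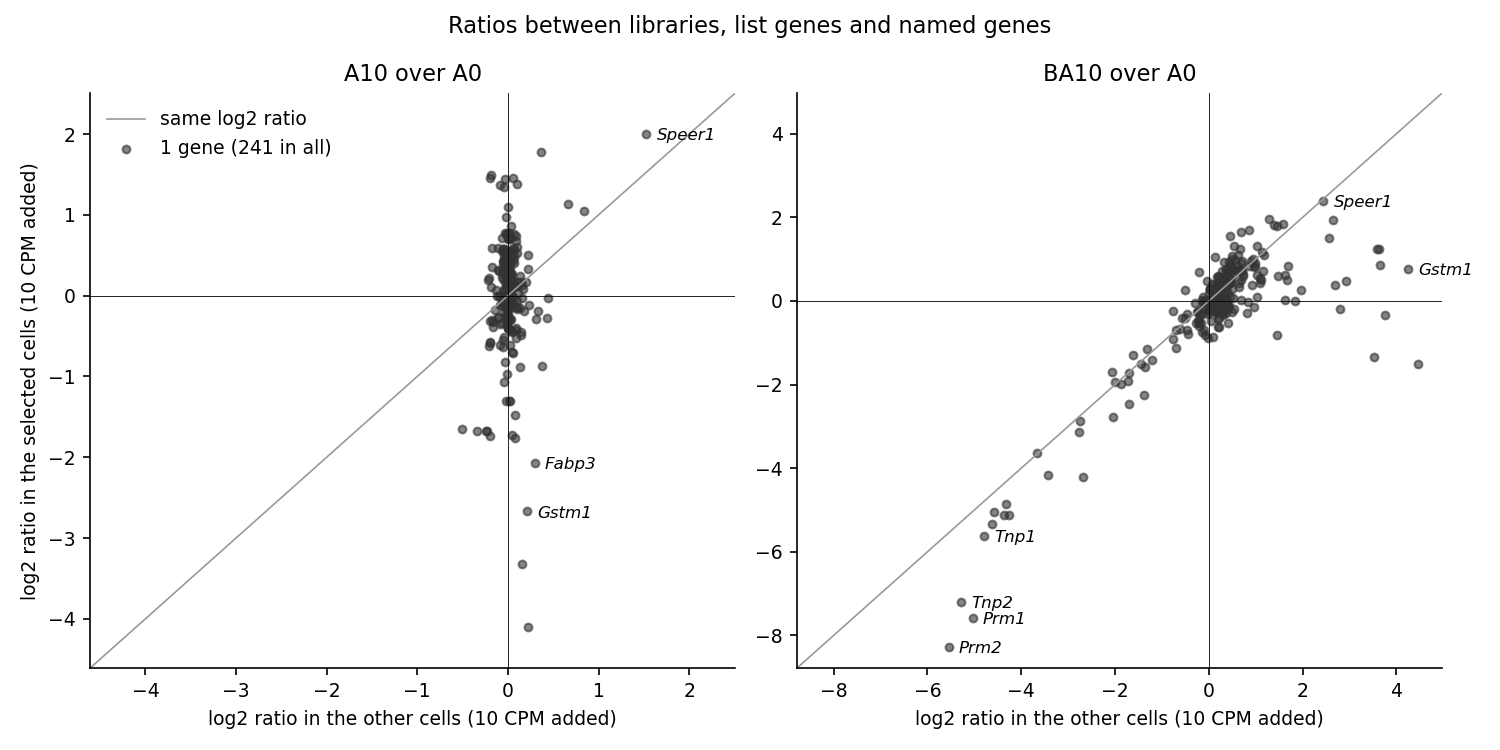
Log2 ratio between libraries in the selected cells (vertical) against the same ratio in the other cells (horizontal), with 10 CPM added, for 241 list and named genes. In the left panel (A10 over A0) the other cells spread less than the selected cells, whose lowest points, Lcn2 at -4.11 and Cyp17a1 at -3.32, have 0 UMIs in A10 and depend on the added CPM (84 Cyp17a1 UMIs of A0 lie in the single Leydig-gene cell), while in the right panel (BA10 over A0) Prm2, Prm1, Tnp2 and Tnp1 are low on both axes and lie below the line of equal ratios.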

How the data were processed

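Single testicular cells were captured and sequenced in 4 libraries. Per the labels the authors processed reads with Cell Ranger 2.2.0 on build mm10. The deposited values are natural log values: the authors took ln(1 + 10000 times the share of a gene in the UMIs of its cell). UMIs were recovered from the 18419 genes and 27060 cells; 100% of values were whole within 0.001. All qualifying cells were taken (38, 25 and 44), where 100 per library had been planned. The selected cells and gene lists were chosen with earlier results of these data known.

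Levels are summed UMIs in CPM, with 10 CPM added for log2 ratios. Ratios without an added CPM have exact conditional intervals and shares exact Clopper-Pearson ones, at 95%. Depth was 150812974 UMIs in A0, 143714595 in A10, 91304225 in BA10 and 25323535 in B0. Thinning drew 5000 UMIs per cell. X-linked genes (756 of 17546 with a chromosome) came from GENCODE M21, which also gave gene positions. Doublets were called with Scrublet (6% expected, scanpy 1.11.5) and kept. The calculations were tested on simulated data. Named genes were those of the gene lists, the 10 largest ratios per library among genes seen in at least 20% of selected cells, and the 8 largest rises and falls per pair of libraries; the Leydig-gene cell and the comparison by pairs of selecting genes were chosen after values were seen. Alternatives were the number and ranking of cells, all 3 genes detected, doublets left out, a common limit of 9013 UMIs, thinning, 1 CPM added, no filter on detection, means over cells, centring, and 3 settings added after seeing the data. Values of some single genes are not reported here.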

Additional observations from a re-analysis of the deposited data

Results flagged for a closer look

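The Leydig list differed in direction between libraries. Its log2 ratio of selected over other cells was 3.30 in A0 and -1.88 in BA10, and the difference was not tested. In A0 a single cell held 214 of the 225 Leydig UMIs, and without it the log2 ratio was -0.21. In BA10 all 7 Leydig genes that entered the comparison were called lower in the selected cells. These levels are sums over cells, and typical cells of BA10 differed less. The Leydig median there was 1.685 UMIs per 10000 in the selected cells and 2.105 in the other cells. The highest cells held 8.95 and 555.

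B0, which the selection does not use, also held such cells. Of its 4659 cells, 39 carried at least 2 of Dmc1, Prdm9 and Meiob (0.837%, 0.596 to 1.14%), 4 of them all 3 genes. B0 was shallow, with a median of 4214 UMIs per cell. Of its 39 cells, 25 carried Prss50, 12 Stra8 and 38 Dazl, at 284, 198 and 740 CPM, and their median X-linked share was 1.54%. After thinning to 5000 UMIs, which left out 3235 cells, 6 of 1424 qualified (0.421%, 0.155 to 0.915%). These cells were compared with no other library.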

How the results depend on the processing

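No paired analysis was possible because each group is 1 library. Taking up to 50 or 200 cells, or ranking by UMIs per 10000, selects the same cells, so these settings check nothing. Requiring all 3 genes left 0, 1 and 2 cells and thinning 6, 4 and 4, too few for levels; the thinned shares were 0.0671%, 0.0413% and 0.106% (A0, A10 and BA10). Depth is a limit: a cell enters on 2 UMIs. The cause of each change below was not tested.

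Counts of genes past 2-fold moved most. Higher in selected than in other cells were 987, 1191 and 148 genes in A0, A10 and BA10 with 1 CPM added, 562, 794 and 76 for means over cells, 81 and 133 (A0 and A10) after centring, 300 in A0 without cells called by Scrublet, 117 in A10 at the common UMI limit, and 535 in A0 and 41 in BA10 with at least 3 UMIs of the 3 genes (added after seeing the data). Lower were 188, 194 and 214 with 1 CPM, 57, 44 and 94 for means, 59 and 48 after centring, 40 in A10 without Scrublet calls, and 203 and 226 (A0 and BA10) with at least 3 UMIs. Between selected cells, 1 CPM gave 752 higher and 958 lower for A10 over A0, 1545 and 2274 for BA10 over A0, and 1099 and 1996 for BA10 over A10. Without Scrublet calls A10 over A0 had 175 and 297. Means gave 207 higher for A10 over A0 and 524 for BA10 over A10, and BA10 over A0 had 200 after centring and 1094 with at least 3 UMIs.

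The pooled X-linked share of 0.961, 0.781 and 0.281% in the selected cells became 0.930, 0.744 and 0.292% without Scrublet calls and 1.01, 0.979 and 0.373% as means, 0.709% in A10 at the common limit, and 1.01% in A0 and 0.250% in BA10 with at least 3 UMIs. The log2 level of all break, strand exchange and crossover genes, 0.17, 0.54 and 0.16, was 0.43 in A10 at the common limit, and 0.27 in A0 and 0.25 in BA10 with at least 3 UMIs.

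The direction turned for genes of the 1 Leydig-gene cell. The Leydig level in A0 was -0.19 at the common limit, -0.66 with at least 3 UMIs and -0.21 without that cell, Fabp3 in A10 over A0 was 0.149 at the common limit and 0.0901 without it, and Gstm1 in A0 was -0.61 with at least 3 UMIs.

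Leaving out, for each list gene called higher, the selected cell with the most UMIs of it (added after seeing the data) left 7 of 12 called in A0, 12 of 18 in A10 and 3 of 4 in BA10.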
